A study of Mus musculus with 12 samples.

Results

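The Slc25 family comprises the solute carriers of the mitochondrial inner membrane, and the uncoupling proteins Ucp1 to Ucp3 belong to the same protein family. Members were taken by symbol: every gene whose name starts with Slc25a, together with Ucp1, Ucp2 and Ucp3. The RefSeq gene table lists 50 such genes, 48 of them had a probe with a single symbol on the array, and 31 were tested among 9747 tested genes of 19057 with a named probe. A gene was tested through its brightest probe among those whose signal passed a detection p of 0.05 on 3 or more of the 12 arrays. The choice of probe compared no groups, but the detection filter can be met by the arrays of a single group.

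Livers of 8-week-old male C57BL/6 mice were profiled on Illumina mouse arrays, with 3 arrays in each of 4 groups. Control mice are labelled as having had no injection. The T3 group received the thyroid hormone L-T3 (liothyronine) by daily intraperitoneal injection for 3 days. The XCT790 group received XCT790, an inverse agonist of the estrogen-related receptor alpha (ESRRA), daily for 4 days by the same route, and the XCT790 plus T3 group received the same 4 days of XCT790, with T3 added for the final 3 days. All groups share strain, sex, age and free access to food and water; none carries an engineered allele. The labels give no doses and no vehicle, so the injections themselves cannot be told apart from the agents in a comparison with the control group. No vehicle is labelled for the mice given T3 or XCT790 alone either. When these are compared with mice given both agents, any added injections likewise cannot be told apart from the added agent. The labels also do not say that each array is a separate mouse. The p-values set group differences against the spread of arrays within groups, pooled over the 4 groups, and that spread may be only technical. The design puts 2 questions to each carrier: how its transcript level differed with T3, and whether that difference depended on XCT790.

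Carriers of this family move metabolites, nucleotides, cofactors and ions across the inner membrane, so that pathways split between the mitochondrial matrix and the cytosol can run. In hepatocytes they serve the urea cycle, the malate-aspartate shuttle, citrate export for fatty acid synthesis, carnitine-dependent fatty acid entry and the exchange of ADP for ATP. Uncoupling proteins let protons return to the matrix without ATP synthesis, and Ucp1 is the thermogenic member of brown fat. The T3 receptors and ESRRA are nuclear receptors, and the sites that both kinds bind are built on the core hexamer AGGTCA.

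The promoters of 3 carriers are shown because Slc25a45 and Slc25a30 had the largest differences with T3 and Slc25a47 was the only carrier that changed with XCT790 alone. Each is the 250 bases before the gene's start in the RefSeq promoter table (build GRCm38.p6), written 5′ to 3′ along the gene's strand, with AGGTCA on either strand in capitals. The Slc25a45 window is chr19:5877572-5877821 (plus strand), that of Slc25a30 is chr14:75787038-75787287 (minus strand) and that of Slc25a47 is chr12:108850879-108851128 (plus strand).
Slc25a45: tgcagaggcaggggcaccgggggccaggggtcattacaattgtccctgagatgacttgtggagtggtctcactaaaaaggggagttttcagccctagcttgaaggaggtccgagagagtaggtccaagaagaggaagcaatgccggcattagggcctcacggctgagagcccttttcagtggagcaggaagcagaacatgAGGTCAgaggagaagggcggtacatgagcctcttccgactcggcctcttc
Slc25a30: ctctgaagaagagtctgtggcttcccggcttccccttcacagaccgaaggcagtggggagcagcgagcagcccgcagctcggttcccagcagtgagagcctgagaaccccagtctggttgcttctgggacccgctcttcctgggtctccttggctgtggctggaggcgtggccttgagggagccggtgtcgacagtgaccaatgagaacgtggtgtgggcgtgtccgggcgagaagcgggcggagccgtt
Slc25a47: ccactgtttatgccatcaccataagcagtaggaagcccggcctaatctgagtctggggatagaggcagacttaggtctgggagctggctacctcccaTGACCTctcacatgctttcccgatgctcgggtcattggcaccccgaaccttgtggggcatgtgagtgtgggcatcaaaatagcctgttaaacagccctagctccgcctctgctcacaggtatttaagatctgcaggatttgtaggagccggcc
Counted from the gene's start, the hexamer spans positions -50 to -45 of Slc25a45, on the gene's strand, and positions -153 to -148 of Slc25a47, on the opposite strand. It was found in 4 of the 27 tested members with a promoter entry (14.8%), the other two being Slc25a34 and Slc25a39, and in 15.8% of 27025 genes, so the share among the members was near that of all genes. The extended site TNAAGGTCA was in 0 of the 27 members and in 1.3% of genes, and the direct repeat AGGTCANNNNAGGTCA was in 0 members and in 0.0148% of genes. Both longer patterns contain the hexamer and both were searched on both strands.

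Detection set what could be tested. Of the 31 tested members, 26 were detected on all 12 arrays and 5 on fewer, namely Slc25a14, Slc25a24, Slc25a29, Slc25a48 and Slc25a53. A further 17 members with a named probe were not tested, of which 15 were detected on 0 arrays. These 15 were Ucp1, Ucp3, the adenine nucleotide carriers Slc25a4, Slc25a31, Slc25a41 and Slc25a54, the amino acid carriers Slc25a2, Slc25a18 and Slc25a22, the carriers Slc25a21, Slc25a35 and Slc25a40, the uncoupling protein relative Slc25a27, and Slc25a43 and Slc25a46. Slc25a36, a pyrimidine nucleotide carrier, was detected on 2 arrays, 1 control and 1 XCT790. Slc25a51, the mammalian mitochondrial NAD carrier, was detected on 1 T3 array. The liver genes Fabp1 and Tat were also detected on 0 arrays with 1 probe each, so an undetected probe does not show that a transcript is missing. Ucp2 had no probe with a single symbol and was not analysed here.

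The tissue label and other cell types were checked from marker genes. Of 8 hepatocyte markers 6 were tested; 0 of them passed for T3 against control, where Alb, detected on 7 arrays, differed by -1.12 (adjusted p = 0.0657). Cyp2e1 fell with T3 in XCT790-treated mice (-0.38, adjusted p = 0.0183) and with both agents against control (-0.42, adjusted p = 0.00998). The hepatocyte markers' summed level lay between 16.91 and 17.07 on the log2 scale on all 12 arrays. The bile duct marker Sox9 fell with T3 (-0.98, adjusted p = 0.00533) and differed by -0.03 with T3 in XCT790-treated mice. Krt7, the other of the 2 tested bile duct markers, was detected on 7 arrays and passed in neither T3 comparison. Kupffer cell markers, those of the liver's resident macrophages, were higher with T3 for 6 of 9 tested in each T3 comparison (median difference 0.75 in both): their summed log2 level was 11.32 to 12.06 in controls, 12.32 to 12.59 with T3, 11.31 to 11.58 with XCT790 and 11.83 to 12.61 with both agents. The part of these cells in the carrier differences below was not tested; in bulk RNA a change in the number of cells of a type and a change in RNA per cell cannot be told apart. The exocrine protease gene Cela1 also rose with T3 (0.95), while the pancreatic marker Cpa1 was detected on 0 arrays. Of the adipocyte markers, Cidea, Plin1 and Retn were detected on 0 arrays, Adipoq on 1 and Lep on 10. Of the skeletal muscle markers, Ckm, Myh4 and Tnnt3 were detected on 0 arrays, Acta1 on 1 and Mylpf on 12. Array 1 of the T3 group had the highest log2 level of the red cell gene Hba-a1 (14.82, against 13.40 and 13.46 on the other T3 arrays).

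With T3, 8 of 31 carriers changed: 6 rose and 2 fell. The rises were those of the carnitine-group carrier Slc25a45, the uncoupling protein relative Slc25a30, the coenzyme A carrier Slc25a42, the aspartate-glutamate carrier Slc25a12, the carnitine-acylcarnitine carrier Slc25a20 and the branched-chain amino acid carrier Slc25a44. The falls were those of the mitochondrial iron importer Slc25a37 and the citrate carrier Slc25a1. Across all 9747 tested genes 16.1% were called at a limma adjusted p (Benjamini-Hochberg, over all genes) under 0.05, 7.24% higher and 8.91% lower, whereas 25.8% of the carriers were. The 3 T3 arrays did not overlap the 3 control arrays for 16 carriers, against 34.8% of all genes. The median log2 difference was 0.10 over the carriers and -0.01 over all genes. Over the 26 members detected on every array the counts were also 6 higher and 2 lower. Without T3 array 1, the array with the high Hba-a1 level, 5 carriers were called.

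In mice given XCT790, T3 was accompanied by 12 called carriers of 31, 6 higher and 6 lower, against 15.2% of all genes (7.63% higher, 7.56% lower). Over the 26 members detected on every array 5 were higher and 5 lower; the other two calls, Slc25a29 and Slc25a24, were of probes detected only in part of the groups. Groups did not overlap for 19 carriers, against 32.8% of all genes. Slc25a45, Slc25a30, Slc25a42, Slc25a12 and Slc25a44 rose again and Slc25a37 fell again, in arrays that share no sample with the T3 and control groups. These 6 are 75% of the carriers called without XCT790 and 50% of those called with it, all in the same direction. The p-values of both T3 comparisons came from a single fit over all groups, so they share an estimate of the spread. With only the groups compared in the fit, Slc25a44 was called in neither. The median log2 difference was -0.09 over the carriers and 0.00 over all genes. Scaling the arrays by their medians instead of by quantiles moved the median of all genes to -0.17 and left 7 carriers called, 2 higher and 5 lower. The rises of Slc25a12, Slc25a42, Slc25a44 and Slc25a29 and the fall of Slc25a13 were no longer called under that scaling, while those of Slc25a45, Slc25a30 and Slc25a37 were. Without XCT790 array 1, 7 were called.

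**Figure D1:**
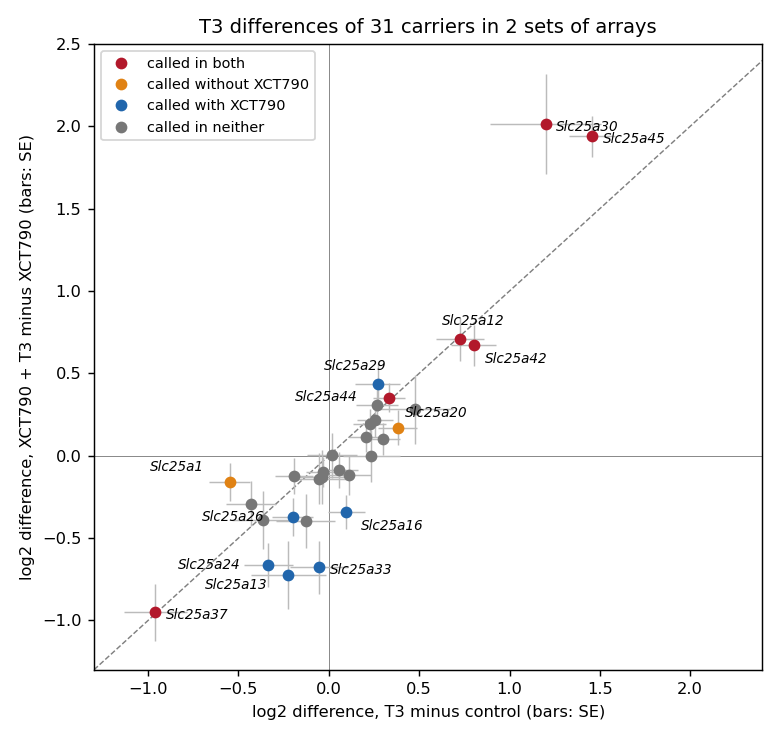
Log2 difference of each of the 31 tested carriers with T3 in mice without XCT790 (horizontal axis) and with XCT790 (vertical axis); points are limma estimates, bars are standard errors, colours mark in which comparison the adjusted p was under 0.05, and the dashed line marks equal differences. Slc25a45 and Slc25a30 lie far to the upper right and Slc25a37 to the lower left, and 27 of the 31 carriers have the same sign in both.

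The 2 sets of T3 differences had a Pearson correlation of 0.92 and a Spearman correlation of 0.91 over the 31 carriers, as the plot of the T3 differences in the 2 sets of arrays shows. Over all 9747 genes the correlations were 0.69 and 0.54. Carriers and genes are measured on the same arrays and are not independent replicates, so these values are descriptions.

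Slc25a45 had the most stable rise. It is placed by sequence with the carnitine carriers. Its log2 level was 10.26, 9.84 and 10.20 on the control arrays and 11.53, 11.55 and 11.59 on the T3 arrays. With XCT790 alone it was 9.80, 10.07 and 9.76, and with both agents 11.72, 11.89 and 11.84. All 6 arrays from T3-treated mice lay more than 1 log2 unit above all 6 others. The difference was 1.46 (SE 0.13, 2.75-fold, adjusted p = 1.15e-05) with T3 and 1.94 (SE 0.13, 3.84-fold, adjusted p = 1.42e-06) with T3 in XCT790-treated mice. The call held under each of 23 alternatives in both comparisons. The difference between these differences was 0.48, with an unadjusted p under 0.05 but an adjusted p of 0.286.

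The other carriers of the carnitine group differed in what moved them. Slc25a20, which exchanges acylcarnitines for free carnitine in fatty acid oxidation, had log2 levels of 11.88, 11.69 and 11.89 in controls and 12.18, 12.36 and 12.06 with T3. The T3 arrays all lay above the controls, by a narrow margin, and the rise was 0.38 (SE 0.11, adjusted p = 0.0296). It was at 12.13, 12.04 and 11.90 with XCT790 and at 12.22, 12.20 and 12.15 with both agents, groups that did not overlap but differed by 0.17, short of the threshold. A second Slc25a20 probe had a T3 difference of 0.57 that did not pass (adjusted p over the kept probes 0.107), and the call was lost when probes were averaged. Without control array 2, T3 array 1 or T3 array 2 it was also lost. Slc25a48, a choline carrier reported in mouse and human, was dim and differed by -0.36 with T3 and -0.39 with T3 in XCT790-treated mice, neither of which passed.

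**Figure D2:**
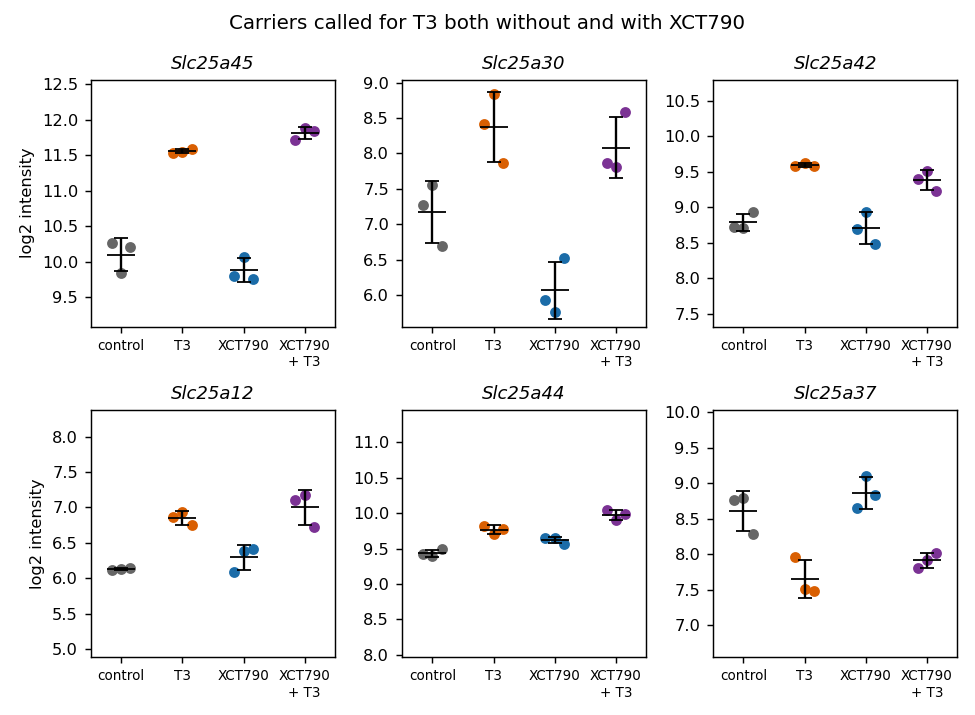
Log2 level on each array of the 6 carriers that changed with T3 both without and with XCT790, 1 panel a gene, with 3 arrays in each of the control, T3, XCT790 and XCT790 plus T3 groups; points are arrays, and the black marks are group means with SD bars. The T3-treated groups are higher for Slc25a45, Slc25a30, Slc25a42, Slc25a12 and Slc25a44 and lower for Slc25a37.

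Slc25a30, also called KMCP1, is a carrier related to the uncoupling proteins, and it spread more between arrays. Its log2 level was 7.27, 7.56 and 6.70 in controls and 8.42, 8.84 and 7.86 with T3. In XCT790-treated mice it was 5.93, 5.76 and 6.52 without T3 and 7.86, 7.81 and 8.58 with T3. The T3 arrays lay above the controls, the XCT790 arrays lay below them, and the arrays of both T3-treated groups overlapped. The rise with T3 was 1.20 (SE 0.31, 2.30-fold, adjusted p = 0.0185), and the call was lost without control array 3 or T3 array 1 or 2. In XCT790-treated mice the rise was 2.01 (SE 0.31, 4.04-fold, adjusted p = 0.00102). The interaction, which tests whether T3 differed in its effect between untreated and XCT790-treated mice, was 0.82 with a 95% interval of -0.13 to 1.76 (adjusted p = 0.505). The other tested relative, Slc25a14 (brain mitochondrial carrier protein, or Ucp5), was detected on 8 of the 12 arrays and differed by -0.13 and -0.40, neither of which passed.

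Of the carriers of amino acids, 2 of 4 tested rose with T3. Slc25a12 (aralar) and Slc25a13 (citrin) exchange aspartate for glutamate and are steps of the malate-aspartate shuttle, and citrin also supplies aspartate to the urea cycle. Slc25a12 stood at 6.12, 6.13 and 6.14 in controls and at 6.87, 6.94 and 6.75 with T3. With XCT790 it was 6.09, 6.39 and 6.41, and with both agents 7.11, 7.18 and 6.72. The T3-treated arrays lay above all others on both sides of the XCT790 treatment, with rises of 0.72 (SE 0.13, 1.65-fold, adjusted p = 0.003) and 0.71 (SE 0.13, adjusted p = 0.00398). The latter was no longer called with median scaling (adjusted p = 0.0957).

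Slc25a13, the citrin gene, had levels of 6.36, 6.28 and 6.95 with XCT790 and 6.00, 5.96 and 5.46 with XCT790 plus T3. It fell in that comparison by 0.72 (adjusted p = 0.0351), with no overlap between the groups. Levels without XCT790 were 6.05, 6.57 and 6.25 in controls and 6.25, 5.86 and 6.08 with T3. Those groups overlapped and the difference of -0.22 did not pass. The fall was lost without XCT790 array 1 or 3 and without XCT790 plus T3 array 2 or 3. The direct test of the difference between the 2 T3 responses of Slc25a13 gave an interaction of -0.50, which also did not pass.

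Slc25a44, a carrier of branched-chain amino acids described in mouse brown fat, showed a small difference with little spread. Its levels were 9.42, 9.39 and 9.49 in controls, 9.82, 9.70 and 9.78 with T3, 9.65, 9.65 and 9.57 with XCT790, and 10.04, 9.90 and 9.99 with both. All 4 groups were ordered without overlap, control lowest and XCT790 plus T3 highest. Rises of 0.33 (adjusted p = 0.0201) and 0.35 (adjusted p = 0.0166) with T3 passed, and neither passed with median scaling (adjusted p of up to 0.653). Neither passed when the fit held only the groups compared. The first call was also lost without control array 1 or 2 or T3 array 1 or 3, in all under 6 of 23 alternatives. The second was also lost without XCT790 plus T3 array 1, in all under 3. Slc25a38, which imports glycine for heme synthesis (shown in yeast and zebrafish), differed by 0.20 and 0.12, and neither value passed.

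Among the carriers of coenzyme A, NAD and other cofactors, T3 in mice without XCT790 was accompanied by 1 rise among 6 tested. Slc25a42, which takes coenzyme A into the matrix, was at 8.73, 8.71 and 8.93 in controls and at 9.58, 9.63 and 9.58 with T3. With XCT790 it was at 8.70, 8.94 and 8.49, and with both agents at 9.40, 9.51 and 9.23. The T3-treated groups lay above the matching untreated groups with a clear gap, by 0.80 (SE 0.13, 1.74-fold, adjusted p = 0.00105) and 0.67 (adjusted p = 0.00387). The 2 other kept probes of this gene, detected on 3 and 4 arrays, had T3 differences of 0.01 and -0.02, and with the mean over its probes Slc25a42 was no longer called (0.26 with T3).

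Slc25a33, Slc25a16 and Slc25a26 fell with T3 in XCT790-treated mice. Slc25a33, a pyrimidine nucleotide carrier, had levels of 9.10, 8.96 and 8.53 with XCT790 and 8.22, 8.17 and 8.15 with both agents. No array overlapped, and the fall was 0.68 (SE 0.16, adjusted p = 0.0144), lost without XCT790 array 1 or 2. Without XCT790 its T3 difference was -0.05, and the interaction of -0.62 did not pass (adjusted p = 0.281). Its levels without XCT790 were 8.61, 8.54 and 8.79 in controls and 8.40, 8.90 and 8.48 with T3, which overlapped.

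Slc25a16, assigned to coenzyme A or a related compound, was at 9.95, 9.79 and 10.07 with XCT790 and at 9.66, 9.48 and 9.65 with both agents. It was at 9.83, 9.87 and 9.97 in controls and at 10.06, 10.01 and 9.89 with T3. The arrays with both agents thus lay below all others, and the fall was 0.34 (SE 0.10, adjusted p = 0.0445), against a difference of 0.10 without XCT790 and an interaction of -0.44 (adjusted p = 0.236). Slc25a26, which imports S-adenosylmethionine, was at 8.35, 8.20 and 8.06 with XCT790 and at 7.67, 7.99 and 7.83 with both agents, a fall of 0.37 (SE 0.12, adjusted p = 0.0482) without overlap. Its control levels of 7.97, 7.88 and 7.79 touched the T3 levels of 7.59, 7.65 and 7.79, a difference of -0.20. The falls of Slc25a16 and of Slc25a26 were each lost under 13 of 23 alternatives. Slc25a17, the peroxisomal carrier of coenzyme A and related cofactors, differed with T3 by -0.05 and -0.14, and Slc25a32, a folate and FAD carrier, by 0.24 and 0.00; none of these values passed.

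Slc25a37, or mitoferrin 1, supplies iron to the matrix for heme and iron-sulfur cluster synthesis and was the carrier with the largest fall. Its levels were 8.76, 8.79 and 8.29 in controls and 7.96, 7.51 and 7.48 with T3. With XCT790 they were 8.65, 9.11 and 8.83, and with both agents 7.80, 7.92 and 8.02. All 6 T3-treated arrays lay below all 6 others. The falls were -0.96 (SE 0.17, 1.95-fold, adjusted p = 0.00274) and -0.95 (SE 0.17, 1.93-fold, adjusted p = 0.00334), and both calls held under each of 23 alternatives.

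Mitoferrin 2 (Slc25a28), which also carries iron, differed by -0.03 and -0.10, and the glutathione carrier Slc25a39 by 0.02 and 0.00; none of these values passed. Slc25a37 is abundant in developing red cells. Beside it, the erythroid heme enzyme Alas2 fell by 1.23 and 1.01, while Hba-a1 differed by 0.20 and 0.27 and the red cell anion exchanger Slc4a1 by 0.63 and 0.31, none of which passed. Against controls, mice given both agents had a higher Slc4a1 level (1.42, adjusted p = 0.0421) and a lower Slc25a37 level. The highest Hba-a1 array, T3 array 1, also had the highest Slc25a37 level of its group. The part of red cell precursors or reticulocytes in the fall of Slc25a37 was not tested. Of the liver enzyme lists, Fech, which inserts iron into heme, fell by 0.58 and 0.82, and the mitochondrial porphyrin transporter Abcb6 by 0.62 and 0.70; these heme genes were picked out after their values were seen. Alas1, the heme synthesis enzyme of the liver on the same list as Fech, differed by 0.65 and -0.39, and neither value passed.

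The citrate carrier Slc25a1 feeds acetyl units to cytosolic fatty acid synthesis. It was at 11.52, 11.62 and 11.59 in controls and at 11.20, 10.81 and 11.08 with T3. With XCT790 it was at 11.59, 11.64 and 11.36, and with both agents at 11.36, 11.40 and 11.35. The T3 arrays lay below all others, while the XCT790 plus T3 arrays just overlapped those with XCT790 alone. The fall with T3 was -0.55 (SE 0.11, 1.46-fold, adjusted p = 0.00608), and a second Slc25a1 probe gave -0.43 (adjusted p over the kept probes 0.0448). In XCT790-treated mice the difference was -0.16, and the interaction of 0.39 did not pass (adjusted p = 0.361). ATP citrate lyase (Acly), which uses the exported citrate, fell by 0.84 with T3 and differed by -0.20 with T3 in XCT790-treated mice.

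The other 3 tested carriers of di- and tricarboxylates were not called with T3. The dicarboxylate carrier Slc25a10 was nearest, at 10.66, 10.55 and 10.56 in controls and 10.30, 10.12 and 10.05 with T3. Those groups did not overlap, and the difference of -0.43 had an adjusted p of 0.052, which fell below 0.05 in several alternatives. The 2-oxoglutarate carrier Slc25a11, a step of the malate-aspartate shuttle, differed by 0.05 with a 95% interval of -0.18 to 0.29. Slc25a34, whose substrate is not settled, differed by 0.48 with overlapping groups.

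None of the 6 tested carriers of adenine nucleotides and phosphate passed with T3 in mice without XCT790. Slc25a5, an ADP-ATP translocase, was at 13.27, 13.06 and 13.23 in controls and 13.42, 13.44 and 13.38 with T3. The groups did not overlap, but the difference of 0.23 (95% interval 0.03 to 0.43) had an adjusted p of 0.119. The phosphate carrier Slc25a3 differed by 0.30 (adjusted p = 0.0557), also without overlap between the groups. The adjusted p of Slc25a3 fell below 0.05 in several alternatives, and that of Slc25a5 did so with other eBayes settings. The calcium-regulated ATP-magnesium carriers Slc25a23 and Slc25a25 differed by 0.25 and -0.04, and the orphan Slc25a53 by -0.19. Slc25a24, of the same ATP-magnesium kind, fell with T3 in XCT790-treated mice: its levels were 5.34, 5.58 and 5.44 with XCT790 and 4.78, 5.03 and 4.55 with both agents. In controls they were 5.35, 5.57 and 5.35, and on the T3 arrays, none of which detected it, 4.93, 5.10 and 5.22. As it was not detected on any of the 3 arrays with both agents, the fall is a bound of at least 1.15-fold (fitted difference -0.66, adjusted p = 0.0065). Its probe passed the detection filter through the groups where it was high, so its calls are likewise no support for a fall.

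Of the ornithine and basic amino acid carriers, Slc25a15, which takes ornithine into the matrix for the urea cycle, was at 11.43, 11.48 and 11.41 in controls and 11.72, 11.68 and 11.71 with T3. The groups were well separated, but the difference of 0.27 had an adjusted p of 0.15. With XCT790 alone Slc25a15 was at 11.32, 11.16 and 11.53. Its second probe differed by 0.51 (adjusted p over the kept probes 0.00864), so the probes disagree on the call. Slc25a29, a carrier of basic amino acids, was not detected on any control or XCT790 array (4.87, 4.93 and 4.74, and 5.07, 5.08 and 4.92) and was detected on all 3 arrays with both agents (5.29, 5.48 and 5.60). It was detected on 1 of the T3 arrays, which stood at 5.34, 5.09 and 4.91. The rise with T3 in XCT790-treated mice was at least 1.16-fold (fitted difference 0.44, adjusted p = 0.037), and it was lost under 12 of 22 alternatives. Its probe passed the detection filter through the arrays with both agents, where it was high, so its calls depend on that filter and are no support for a rise.

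**Figure D3:**
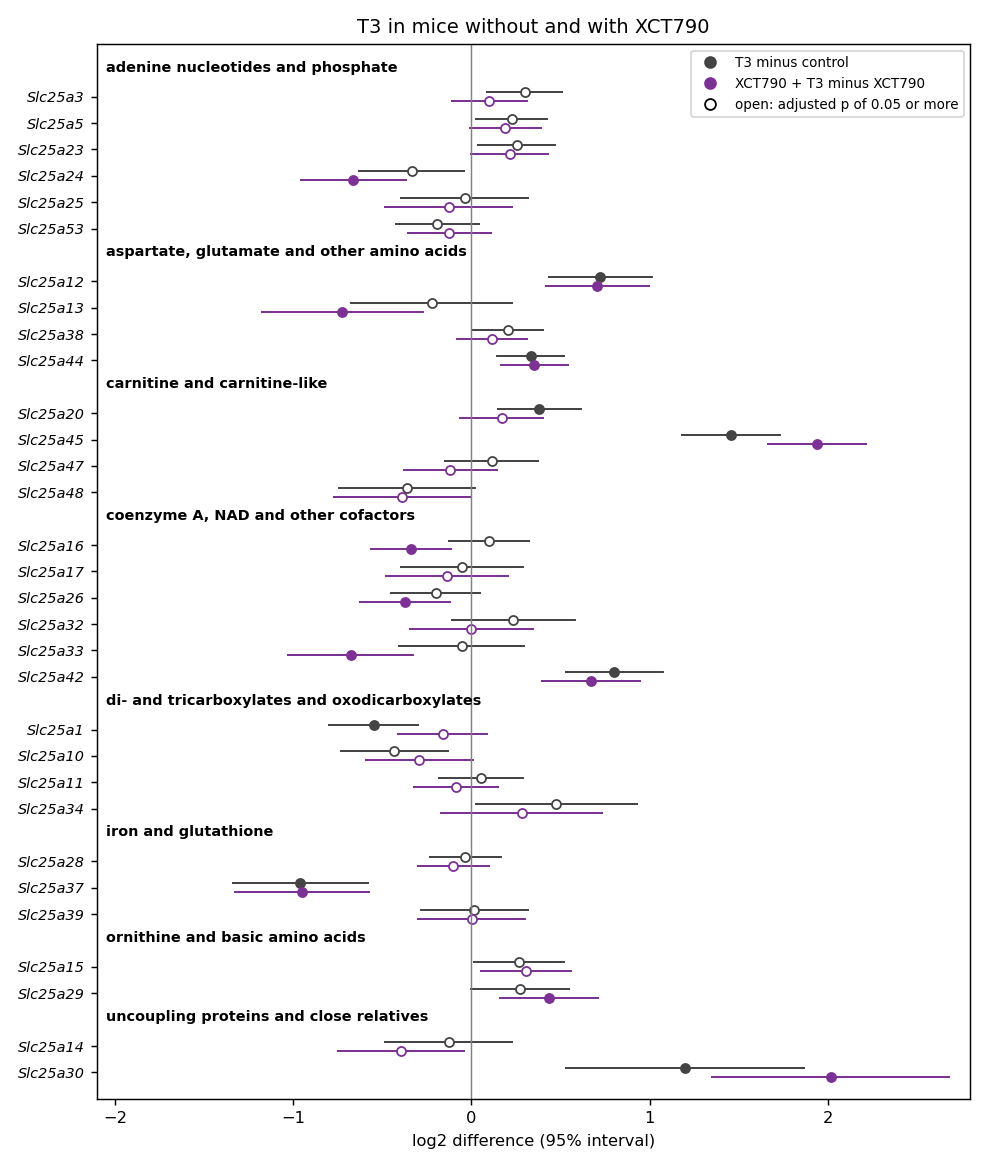
Log2 differences with T3 (points) and their 95% intervals (lines) for the 31 tested carriers, grouped by what they carry, in mice without XCT790 and with XCT790; filled points have an adjusted p under 0.05. The pairs of points lie close together for most carriers, and Slc25a13, Slc25a16 and Slc25a33 are among those whose lower value is in XCT790-treated mice.

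Slc25a47 was the single carrier called for XCT790 against control, 1 of 31, against 4.44% of all genes (2.29% higher, 2.15% lower). Groups did not overlap for 8 carriers, against 21.9% of all genes. Slc25a47 is a liver-enriched carrier, first described as an uncoupling-like protein, whose substrate is still debated. Its levels were 14.05, 13.59 and 13.96 in controls, 14.47, 14.50 and 14.34 with XCT790, 13.99, 14.05 and 13.91 with T3, and 14.24, 14.37 and 14.34 with both agents. Every array from XCT790-treated mice lay above every array from the other groups. The rise with XCT790 was 0.57 (SE 0.12, 1.48-fold, adjusted p = 0.0204), and it was lost without control array 2 or XCT790 array 1 or 2 and when the fit held only the groups compared (adjusted p = 0.0824). In T3-treated mice the difference with XCT790 was 0.34 and did not pass, and T3 differences of 0.11 and -0.12 did not pass.

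Slc25a30 had the largest difference with XCT790 in size, -1.11 (SE 0.31), with all 3 XCT790 arrays below the controls, and an adjusted p of 0.065. It passed with median scaling, with the stricter detection filter, with array weights and without XCT790 array 3 (4 of the 23 alternatives). The median difference with XCT790 was 0.05 over the carriers and -0.01 over all genes. With median scaling 2 carriers were called, 1 higher and 1 lower.

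In T3-treated mice, XCT790 was accompanied by 0 called carriers of 31 by limma, 10 of them with an unadjusted p under 0.05, against 0.0923% of all genes called (0.0718% higher, 0.0205% lower). Groups did not overlap for 9 carriers, against 19.3% of all genes. Among these, Slc25a17 was at 9.70, 9.96 and 9.76 with T3 and 9.40, 9.43 and 9.17 with both agents, a difference of -0.47; it was at 9.59, 10.09 and 9.90 in controls and 9.27, 9.39 and 9.76 with XCT790 alone. Slc25a16 differed by -0.39, Slc25a33 by -0.41 and Slc25a1 by 0.34. The XCT790 differences in untreated and T3-treated mice had the same sign for 20 carriers, with a Pearson correlation of 0.48 over the carriers and 0.22 over all genes, as descriptions.

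**Figure D4:**
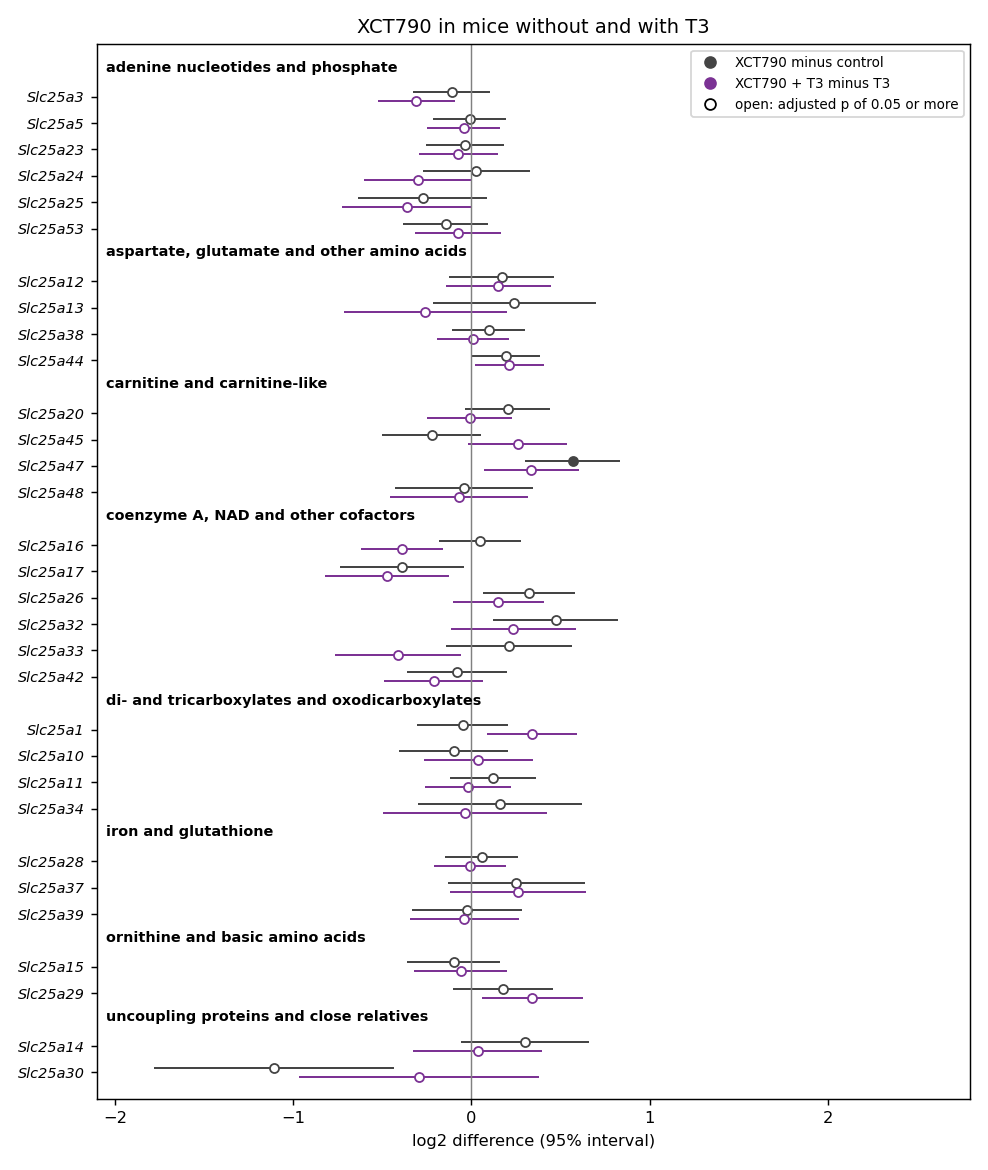
Log2 differences with XCT790 (points) and their 95% intervals (lines) for the 31 tested carriers, in mice without T3 and with T3; filled points have an adjusted p under 0.05. Only Slc25a47 without T3 is filled, and Slc25a30 has the lowest value and a wide interval.

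The interaction was called for 0 of 31 carriers by limma, against 0.462% of all genes (0.185% higher, 0.277% lower), and 4 carriers had an unadjusted p under 0.05: Slc25a16, Slc25a33, Slc25a45 and Slc25a1. The count was 0 in each alternative that was run. The median interaction was -0.08 over the carriers and 0.02 over all genes. A carrier called with T3 only in 1 of the 2 settings is therefore not shown to differ between them.

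Against controls, mice given both agents had 10 called carriers of 31, 7 higher and 3 lower, against 18.7% of all genes (8.97% higher, 9.77% lower). Over the 26 members detected on every array 6 were higher and 2 lower, again without Slc25a29 and Slc25a24. Groups did not overlap for 23 carriers, against 35.5% of all genes. This comparison shares its control arrays with the comparisons of each agent alone. Slc25a45 (1.72), Slc25a12 (0.87), Slc25a29 (0.61), Slc25a42 (0.59), Slc25a44 (0.54), Slc25a47 (0.45) and Slc25a20 (0.37) were called higher. Slc25a37 (-0.70), Slc25a24 (-0.64) and Slc25a17 (-0.53) were called lower. Of 23 alternatives, the call of Slc25a20 was lost under 8, that of Slc25a17 under 7, that of Slc25a47 under 5 and that of Slc25a37 under 3. The calls of Slc25a42 and Slc25a44 were lost with median scaling. Adjusted p-values ran from 2.59e-06 for Slc25a45 to 0.0361 for Slc25a17. As linear bounds, Slc25a29 was at least 1.22-fold higher and Slc25a24 at least 1.13-fold lower. The probes of both passed the detection filter through the groups where they were high, so these calls and bounds are no support for a difference. Slc25a30 differed by 0.91 and did not pass. The split depended on scaling: with median scaling, which moved the median of all genes to -0.27, 11 carriers were called, 3 higher and 8 lower. Without control array 2, 6 were called.

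**Figure D5:**
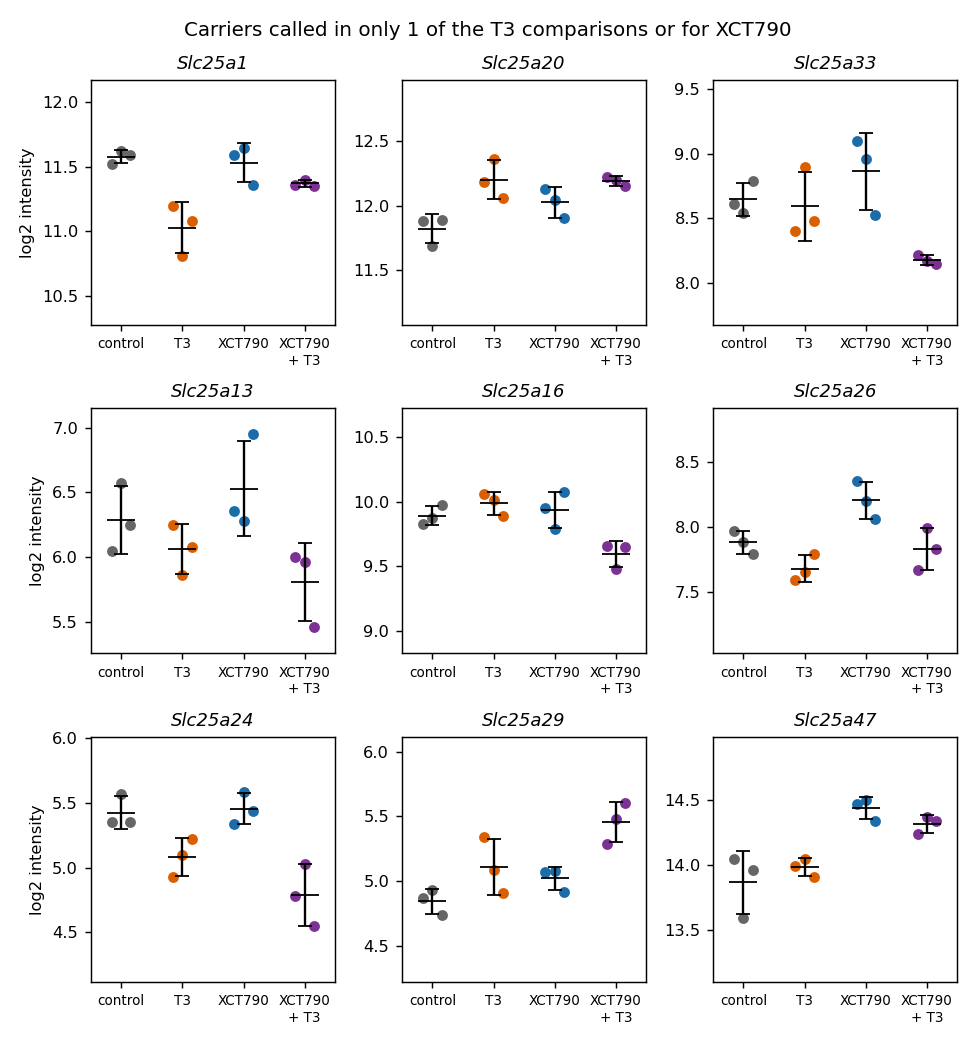
Log2 level on each array of the carriers called with T3 in only 1 of the 2 settings, or with XCT790, 1 panel a gene, with 3 arrays in each of the 4 groups; points are arrays, and the black marks are group means with SD bars. Slc25a47 is higher in both XCT790-treated groups, and Slc25a1 is lowest with T3 alone.

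Genes that work beside the carriers were taken as lists. Of 30 mitochondrial transport genes outside the family 19 were tested, and 3 rose and 3 fell with T3 (median 0.14). Letm1, an inner membrane cation exchange protein, rose by 1.25, and by 1.06 in XCT790-treated mice. Sfxn5, of the sideroflexin carriers, fell by 0.62 and 0.59. Of 32 enzymes that use or supply what the carriers move 26 were tested, and 5 rose and 3 fell with T3 (median 0.13). Mitochondrial glycerol-3-phosphate dehydrogenase (Gpd2), of the other NADH shuttle, rose by 1.26 and 1.36, and Pank1, which starts coenzyme A synthesis, by 0.52 and 0.38. Ornithine aminotransferase (Oat) fell by 1.74 and 1.60. With XCT790 alone 3 of the 26 enzymes rose, Pck1 (0.95), Asl (0.81) and Pank1 (0.46), and 0 fell. The T3-responsive genes Thrsp and Dio1 rose by 2.59 and 2.13 with T3; with XCT790 alone Thrsp rose by 1.23 and Dio1 differed by -0.19. Esrra itself rose by 0.58 with T3 and by 0.57 with XCT790. Of the 6 genes listed with ESRRA, Esrra included, 3 rose and 1 fell with T3. With XCT790 alone 1 of these 6 rose, Esrra itself, and 0 fell.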

How the data were processed

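Per the labels' protocols, liver RNA was labelled with biotin and hybridised to Illumina bead arrays. The authors deposited a table of probe intensities before normalization, in which every intensity has its own detection p-value, and a processed matrix; the submitters' processing notes name Partek 6.6, and the scanner software was not named. Background was estimated from the deposited detection p-values of 45281 probes and subtracted from the intensity with limma 3.58.1 (nec, offset 16) in R 4.3.3, followed by log2 and quantile normalization between arrays. Probes with a deposited detection p-value under 0.05 on at least 3 arrays were kept (17218). Summed intensities were 14568457 to 22343383 an array; with 3 arrays in a group, their number limits the precision. A limma fit (lmFit, eBayes) over the 4 groups gave 6 contrasts, each adjusted by Benjamini-Hochberg over 9747 genes. Bounds set the brighter group's mean against the higher of the lowest detected signal and the dim probe's own. The fit was tested on simulated data. Probe names come from the platform annotation (34885 probes with 1 symbol, 18 with several, 10378 with none). The text accounts for every member, with values on each array for those called in at least 1 contrast. It names only some of the called companion genes, and not by lowest p alone. With T3, Aass (0.87) and Timm10 (0.54) were also called higher and are named only here. The members, lists and roles were chosen with earlier results of these data known. The labels and file headers used here name no slide or scan batch. Alternatives varied background, scaling, filter, probe rule, offset, source table, samples fitted, eBayes settings, array weights, the replicate number and each array left out.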

Additional observations from a re-analysis of the deposited data

Results flagged for a closer look

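Slc25a51, the NAD carrier, fell outside the tests because its probe was detected on 1 array alone, a T3 array, and on 0 control arrays. Its highest log2 level was 5.31, near the lowest level that counts as detected on these arrays (5.14 to 5.32), and its lowest was 4.56. A single detection near that limit is a value for these arrays and shows no difference between groups.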

How the results depend on the processing

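Of the 31 calls on single carriers, 12 were lost under none of the alternatives that tested them: Slc25a45 in its 3 comparisons, Slc25a37 with T3 in both settings, Slc25a12 with T3 and with both agents, Slc25a24 in its 2 comparisons, Slc25a1 with T3, Slc25a29 with both agents and Slc25a30 with T3 in XCT790-treated mice. The stricter filter left out Slc25a24 and Slc25a29, so it says nothing on their calls, and 22 alternatives were run for each of them. The probes of both passed the detection filter through the groups where they were high. Their calls are therefore given as values and are no support for a difference. No call changed direction, and 16 carrier results that were not called passed under at least 1 alternative. The count for XCT790 against control, 1, was 2 with median scaling, the stricter filter or array weights and 0 with only the groups compared in the fit. The count for T3 in XCT790-treated mice, 12, was 7 with median scaling and 7 with only the groups compared; the cause was not tested. Leaving out each array in turn gave 5 to 9 for T3, 0 to 2 for XCT790 (0 without control array 2 or XCT790 array 1 or 2), 7 to 10 for T3 in XCT790-treated mice, 6 to 11 for both agents against control, and 0 to 0 for XCT790 in T3-treated mice and for the interaction. The labels do not say that replicate numbers pair the arrays. Deviations of same-numbered arrays correlated between -0.13 and 0.13, and 4 of 12 arrays correlated best with their own number. With 3 arrays in a group, these values do not settle whether the numbers pair the arrays. With the replicate block the counts were 9, 1, 8, 0, 11 and 0 for T3, XCT790, T3 in XCT790-treated mice, XCT790 in T3-treated mice, both agents against control and the interaction. The interaction was not run on fewer groups, as it uses all 4. Signal limits the 5 carriers not detected on every array, for which small differences were not measurable.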
